A study of Mus musculus with 14 samples.

Results

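The genes described are 9 immediate early genes (Jun, Junb, Jund, Fos, Fosb, Atf3, Egr1, Ier2 and Dusp1) and Zfp36, which encodes tristetraprolin, a protein that destabilises short-lived mRNAs. They were taken by symbol from the deposited gene tables, in which each symbol had 1 row, and are 10 of 45706 genes. Expression was measured by RNA sequencing in 14 libraries of mouse blood-forming cells with or without Prmt5, the gene of an arginine methyltransferase. The design compares cells lacking Prmt5 (KO) with cells that keep it (WT) in 3 populations.

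Fetal liver at E14.5 was sorted by Ter119, a surface antigen of maturing red cell precursors, into Ter119neg and Ter119pos cells. All fetal mice were Prmt5 fl/fl; KO mice also carried Vav-cre, a recombinase expressed throughout the blood lineages, and WT mice did not. Each of these 4 groups held 2 libraries, A and B. Both fractions were taken from mice 1 and 2 (KO) and mouse 4 (WT), whereas the WT libraries lettered A came from mouse 3 (Ter119neg) and mouse 5 (Ter119pos). The sorted progenitors called LK cells came from Mx1-cre;Prmt5 fl/fl (KO) or Prmt5 fl/fl (WT) mice, with 3 libraries, A to C, in each group. Mx1-cre is switched on by interferon, and both LK groups had received poly(I:C), an inducer of interferon, and were collected 7 days later. Since the labels tie no LK library to a mouse, LK p-values measure only library-to-library spread. Bulk RNA was sequenced throughout, so fewer cells of a type and less RNA per cell cannot be told apart.

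Immediate early genes are switched on within minutes of a stimulus without new protein synthesis, through MAP kinases acting on factors such as SRF with its ELK partners and CREB. JUN, FOS and ATF proteins pair to form the AP-1 transcription factors, EGR1 is a zinc finger activator, and DUSP1 dephosphorylates MAP kinases and so ends the signal. Their mRNAs are short-lived, and many carry AU-rich elements to which ZFP36, itself product of an immediate early gene, binds to recruit the deadenylation machinery. The same genes are also known to be induced by stress and by the handling of cells.

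Many members carry an AU-rich motif. Such elements are a known trait of this class of genes, so the shares describe the members and are no independent finding. The 7 bases TATTTAT were present in the annotated 3′ UTR of 7 of the 10 members (70.0%), against 27.6% of 21037 coding genes, and at least 2 copies were present in 3 members (30%), against 10.4% of genes. The members' UTRs were not long, with a median of 794.5 bases against 960.0 for all genes. Zfp36 and Dusp1 held 3 copies each and Fos held 2. Jun, Jund, Fosb and Atf3 held 1 copy, and the motif was not in the annotated UTRs of Junb, Ier2 and Egr1. The following stretches from GENCODE M21 transcripts (GRCm38, transcript strand, 5′ to 3′) show 1 copy each from the 2 genes with most copies and from the AP-1 genes Fos and Jun, with the motif in capitals.
Zfp36: ttttatagTATTTATatatattg
Dusp1: ctggtcctTATTTATttaacacc
Fos: tttcaattTATTTATtaagatgg
Jun: cttgtgcaTATTTATaatagcgt
In the UTR of Dusp1 this copy begins at base 104 of 690, in that of Zfp36 at base 615 of 774, in that of Fos at base 656 of 815 and in that of Jun at base 1171 of 1233.

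Promoter sequence of 250 bases before the start site was given by RefSeq (GRCm38.p6) for 8 of the 10 members, all but Egr1 and Ier2. Motifs were searched on both strands: the cyclic AMP response element TGACGTCA (CRE), its core TGACG, which the full element contains, the AP-1 site TGANTCA, the EGR site GCGNGGGCG, the TATA box TATAAA and the CArG box bound by SRF. The CRE core was in the windows of 5 of the 8 members (Junb, Fos, Fosb, Atf3 and Dusp1), against 17.9% of 32536 windows. Dusp1 alone of the 8 held the full CRE, found in 1.56% of windows. Zfp36 alone held a CArG box, found in 1.48%, and Zfp36 and Fosb held an EGR site, found in 4.74%. Fos alone held the TATA box (12.3% of windows), none of the 8 held the AP-1 site (6.73%), and none of these motifs was in the windows of Jun and Jund. A match describes letters and not a bound site. Sequence further upstream, and all promoter sequence of Egr1 and Ier2, was not searched, so a motif missing here may be present there. Junb and Dusp1 are shown because they differed in opposite directions in Ter119pos cells, and Zfp36 for its 2 sites, with all matches in capitals.
Junb promoter, chr8:84978749-84978998, minus strand: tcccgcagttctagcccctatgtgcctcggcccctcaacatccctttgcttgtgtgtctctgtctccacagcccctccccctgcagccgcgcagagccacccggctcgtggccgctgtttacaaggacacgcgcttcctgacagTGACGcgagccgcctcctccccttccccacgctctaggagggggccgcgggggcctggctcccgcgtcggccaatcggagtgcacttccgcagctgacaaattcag
Dusp1 promoter, chr17:26508520-26508722, minus strand: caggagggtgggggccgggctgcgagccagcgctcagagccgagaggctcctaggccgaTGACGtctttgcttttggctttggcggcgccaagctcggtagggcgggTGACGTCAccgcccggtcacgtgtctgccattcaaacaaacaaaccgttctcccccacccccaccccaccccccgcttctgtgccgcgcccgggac
Zfp36 EGR site, chr7:28379315-28379343, minus strand: gagctacgccGCGGGGGCGcgtcccggaa
Zfp36 CArG box, chr7:28379267-28379296, minus strand: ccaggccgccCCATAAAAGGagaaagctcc
The Dusp1 stretch stops 48 bases before the RefSeq start site, where annotated exon sequence begins, and the Zfp36 window lies within an exon of a longer GENCODE transcript.

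Total expected counts were 19514550 to 30976961 per LK library, 22381074 to 27620734 per Ter119neg library and 19880052 to 29652947 per Ter119pos library. Levels are given as CPM, TMM-normalised counts scaled to a library of fixed size, and those of Prmt5 were 10.5 to 12.3 CPM in LK KO against 63.1 to 110 in WT, 4.26 to 4.51 against 51.8 to 52.3 in Ter119neg and 3.64 to 4.92 against 13.8 to 17.7 in Ter119pos cells, so every KO library was below every WT library of its population. Gene counts include reads from any exon left in place, and the source of the remaining KO reads was not tested. Erythroid marker genes summed to 313000 to 443000 CPM in Ter119pos and 891 to 1820 CPM in Ter119neg libraries. The LK libraries lettered B stood apart, with 23.4% (KO) and 18% (WT) of counts from 18S ribosomal RNA against at most 0.179% in the other 4. In Ter119pos cells 3 small non-coding RNAs (Rn7s1, Rn7s2 and Rn7sk) took 31.1% to 32.2% of counts in KO and 5.71% to 5.9% in WT, so scaling matters for this comparison and is given with it.

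The comparison of KO with WT Ter119pos cells asked how loss of Prmt5 changes the members in maturing red cell precursors. Of 9 members tested, 7 rose, 1 fell and 1 did not pass (edgeR quasi-likelihood test, adjusted p under 0.05); Fosb was below the filter on low counts. Over all 15566 genes tested, 54.2% were called, 24.8% higher and 29.3% lower. The median log2 fold change was 1.36 for the tested members and -0.04 for all genes. KO and WT libraries did not overlap for any of the 10 members, 9 being higher and 1 lower in KO, against 35.8% of all tested genes separated upward and 39.8% downward.

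Jun (ENSMUSG00000052684, chromosome 4, 95049034 to 95052222, minus strand, 1 exon), the founding AP-1 subunit, measured 11.7 (A) and 16.7 (B) CPM in the KO libraries and 0.481 (A) and 0.412 (B) CPM in the WT libraries. Both WT libraries were near the limit of detection, and both KO libraries far above them. The difference was 31.4-fold (log2 fold change 4.97, SE 0.309, edgeR adjusted p = 1.75e-07). Junb (ENSMUSG00000052837, chromosome 8, 84974484 to 84978718, minus strand, 1 exon in its longest transcript), an AP-1 subunit that in many cells counters JUN, measured 58.7 and 89.4 CPM in KO and 4.27 and 3.18 CPM in WT. Its KO libraries differed from each other by more than the WT libraries did, without nearing them. The difference was 19.8-fold (log2 fold change 4.31, SE 0.223, adjusted p = 6.25e-08).

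Zfp36 (ENSMUSG00000044786, chromosome 7, 28376784 to 28380253, minus strand, 2 exons) measured 28.3 and 31.4 CPM in KO and 1.38 and 1.82 CPM in WT. Libraries within each genotype were close together, and the gap between genotypes was 18.5-fold (log2 fold change 4.21, SE 0.186, edgeR adjusted p = 2.43e-08). These 3 genes had larger log2 fold changes than the other tested members, and each stayed called under all 13 alternatives of scaling, tool, filter and left-out library.

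Jund (ENSMUSG00000071076, chromosome 8, 70698949 to 70700616, plus strand, 1 exon), the JUN family member known for steady rather than induced expression, measured 43.8 and 46.9 CPM in KO and 19.2 and 17.9 CPM in WT (log2 fold change 1.29, SE 0.138, edgeR adjusted p = 6.79e-06). Ier2 (ENSMUSG00000053560, chromosome 8, 84661331 to 84662852, minus strand, 1 exon), a small nuclear immediate early protein, measured 5.95 and 7.94 CPM in KO and 3.25 and 2.12 CPM in WT (log2 fold change 1.36, SE 0.249, adjusted p = 0.000515). Fos (ENSMUSG00000021250, chromosome 12, 85473890 to 85477273, plus strand, 4 exons), the classic partner of JUN, measured 2.66 and 5.09 CPM in KO and 1.62 and 1.94 CPM in WT. The 3 genes rose less than Jun, Junb and Zfp36, and Fos KO library A lay close to the WT libraries. Fos had a log2 fold change of 1.1 (SE 0.354, adjusted p = 0.0191), which fell to 0.58 without KO library B and lost its call there and without WT library A (0.97).

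Members at the lowest levels had few counts behind them. Egr1 (ENSMUSG00000038418, chromosome 18, 34859823 to 34864984, plus strand, 2 exons) measured 1.33 and 0.69 CPM in KO and 0 and 0.235 CPM in WT (log2 fold change 3.07, SE 0.762, edgeR adjusted p = 0.00436). Its size rested on the WT library B, without which the fitted value was 7.95, and without KO library A the adjusted p was 0.0554. Atf3 (ENSMUSG00000026628, chromosome 1, 191170296 to 191218039, minus strand, 4 exons), a stress-induced AP-1 partner, measured 0.63 and 0.604 CPM in KO and 0.421 and 0.0588 CPM in WT and did not pass (log2 fold change 1.36, SE 0.745, adjusted p = 0.144). Without WT library A it was called at 3.30 (adjusted p = 0.0318), and without WT library B it was 0.55 (0.567). Fosb (ENSMUSG00000003545, chromosome 7, 19302696 to 19310051, minus strand, 4 exons) had 9 counts in KO library A (0.63 CPM), 2 in KO library B (0.173 CPM) and 0 in both WT libraries, where 3 counts would be 0.18 and 0.177 CPM. KO library B was thus below the level of 3 counts in the WT libraries, and no fold is given.

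Dusp1 (ENSMUSG00000024190, chromosome 17, 26505590 to 26562128, minus strand, 3 exons in its longest transcript) was the single member that fell. It measured 31.6 and 34.4 CPM in KO and 50.7 and 43.5 CPM in WT, so the genotypes did not overlap. Its log2 fold change was -0.52 (SE 0.123, edgeR adjusted p = 0.00341), a 1.43-fold lower level.

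**Figure D1:**
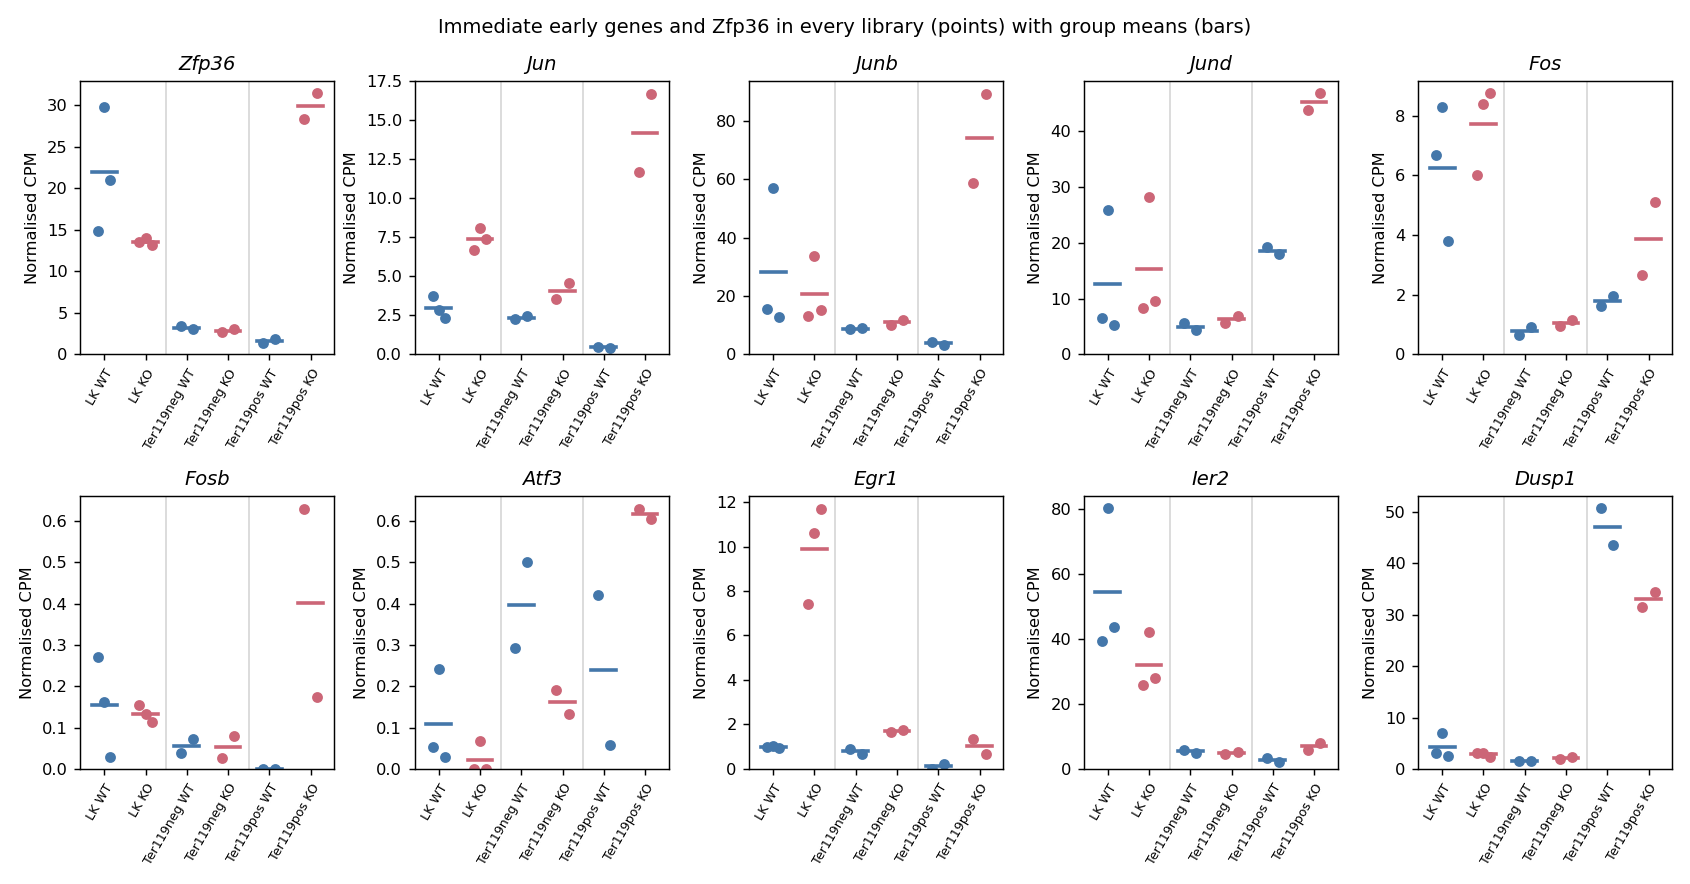
Normalised CPM (y axis from 0, a scale for each gene) of the 10 members in every library (points; blue WT, red KO), with group means as bars; LK and fetal libraries were normalised separately. Ter119pos KO libraries stand above Ter119pos WT for 9 members, while Dusp1 measured 31.6 and 34.4 CPM in KO against 50.7 and 43.5 CPM in WT, and LK KO libraries stand apart for Egr1 at 7.43 to 11.7 CPM.

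The size of these changes depended on scaling. With library totals alone in place of TMM factors, the median log2 fold change of all genes moved from -0.04 to -0.93. Jun (4.07), Junb (3.40), Zfp36 (3.32) and Egr1 (2.18) remained called higher and Dusp1 lower (-1.40). Jund (0.40), Ier2 (0.47) and Fos (0.19) kept their direction and lost their calls, so 5 members were called. Such factors shift all genes of a library alike, so values relative to the median of all genes hardly move by construction; with TMM they were 5.01 for Jun, 4.25 for Zfp36 and -0.48 for Dusp1. TMM over protein-coding genes, RLE factors and removal of globin genes each left 8 members called.

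**Figure D2:**
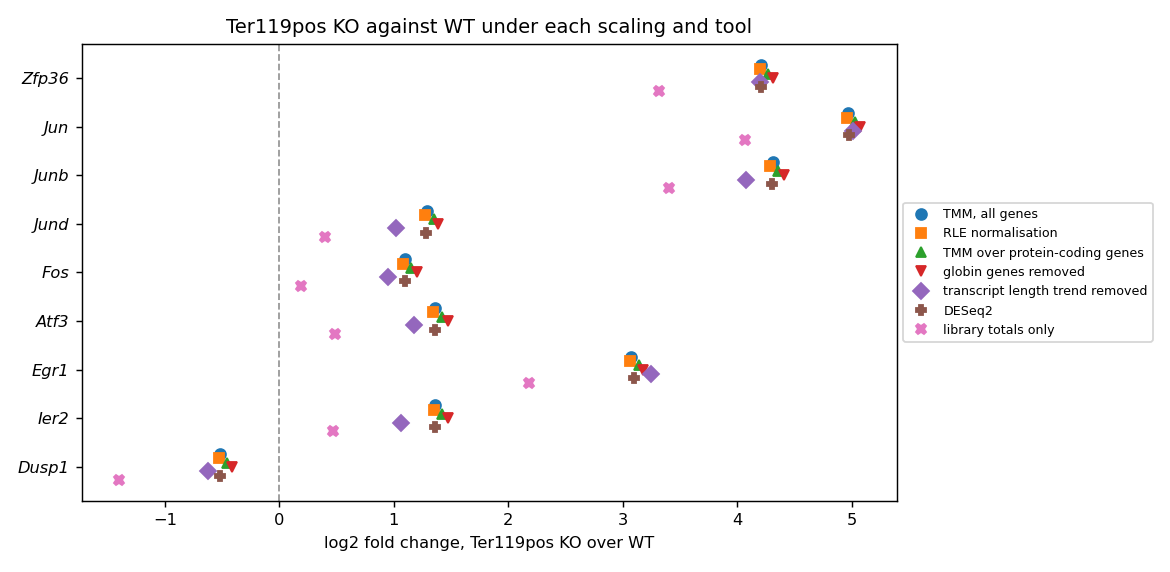
log2 fold change of 9 members in Ter119pos KO over WT (x axis) under each scaling and tool (symbols). Crosses for library totals alone lie to the left of the other symbols for every gene, at 4.07 for Jun and 0.19 for Fos, and no gene crosses 0.

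Markers of other cells moved in the same comparison. The 12 endothelial and stromal markers summed to 33.1 to 53.9 CPM in KO and 8.89 to 13.8 CPM in WT (5 of 12 tested called higher, 2 lower). The 10 hepatocyte markers summed to 57.9 to 88.4 against 32.8 to 46.8 CPM (4 of 10 higher, 0 lower), and the 10 megakaryocyte markers to 51 to 52.8 against 38.6 to 41.3 CPM (7 higher, 2 lower). The 17 macrophage markers overlapped, at 75.8 to 96 against 75.3 to 118 CPM (1 of 16 tested higher, 4 lower), and the 18 granulocyte and monocyte markers were lower, at 36.1 to 90.6 against 105 to 203 CPM (0 higher, 9 lower). Stem and progenitor markers summed to 38.7 to 46.9 against 28 to 30.3 CPM (2 of 11 tested higher, 2 lower) and lymphoid markers to 1.19 to 1.47 against 2.24 to 5.83 CPM (0 of 9 higher, 3 lower). No marker of the first 4 lists was at 0 in every library of either genotype, and 1 granulocyte and monocyte marker was. Of the lymphoid markers, 4 were at 0 in both KO libraries and 2 in both WT libraries. Erythroid markers, those of the sorted cells themselves, summed to 339000 to 443000 CPM in KO and 313000 to 349000 CPM in WT. Of 14 tested, 1 was higher and 6 were lower in KO. Globin genes took 16.4% (A) and 18.3% (B) of counts in KO and 25.1% (A) and 24.6% (B) in WT libraries. The part of these marker differences, and of the small non-coding RNAs, in the members' changes was not tested.

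Members were also compared with each other, per kilobase of longest transcript, as levels. The order depends on this choice of length, and other lengths were not tried. The longest Zfp36 transcript begins before the RefSeq start site, so a shorter length would raise the Zfp36 values per kilobase. In WT Ter119pos cells Dusp1 was highest at 20.4 ± 2.22 CPM per kb (SD, n = 2), followed by Jund at 11.1 ± 0.522, Junb at 2.06 ± 0.427, Ier2 at 1.76 ± 0.524, Fos at 0.846 ± 0.107, Zfp36 at 0.575 ± 0.112, Jun at 0.14 ± 0.0153, Atf3 at 0.121 ± 0.129 and Egr1 at 0.0262 ± 0.0371, with Fosb at 0. Junb and Ier2, and Jun, Atf3 and Egr1, were neighbours whose differences were within their spread. In KO cells the order was Junb at 40.9 ± 12 CPM per kb, Jund at 27.2 ± 1.32, Dusp1 at 14.3 ± 0.871, Zfp36 at 10.7 ± 0.791, Ier2 at 4.56 ± 0.923, Jun at 4.46 ± 1.12, Fos at 1.84 ± 0.815, Atf3 at 0.311 ± 0.00932, Egr1 at 0.225 ± 0.101 and Fosb at 0.106 ± 0.0855. Ier2 and Jun, and Atf3, Egr1 and Fosb, were neighbours that lay within their spread. Compared within single libraries, Junb was above Ier2 in both WT libraries. Atf3 was above Egr1, and Egr1 above Fosb, in both KO libraries, from few counts. Dusp1 thus ranked 1 in WT and 3 in KO.

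In Ter119neg cells, the less mature fraction, 1 of 9 tested members was called, and it was higher in KO. Of all genes tested 19.1% were called, 9.57% higher and 9.55% lower. Jun measured 3.52 and 4.55 CPM in KO and 2.24 and 2.46 CPM in WT (log2 fold change 0.78, SE 0.212, edgeR adjusted p = 0.0226). The genotypes did not overlap for Jun, but the call was lost without KO library B (0.54, adjusted p = 0.209), without WT library A (0.68, 0.134) or B (0.80, 0.0773), with DESeq2 (0.73, 0.0698) and with library totals alone (0.47, 0.17). Egr1 measured 1.68 and 1.73 CPM in KO and 0.914 and 0.692 CPM in WT and did not pass (log2 fold change 1.07, SE 0.387, adjusted p = 0.0746), although it did without the low count filter (1.04) and in a fit of this fraction alone (1.08).

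None of the other members passed in the Ter119neg fraction. Atf3 had the largest of their differences, at 0.192 and 0.133 CPM in KO and 0.292 and 0.501 CPM in WT (log2 fold change -1.25, 95% interval from -2.44 to -0.05, edgeR adjusted p = 0.181), from 5 to 21 counts a library. Zfp36 measured 2.69 and 3.01 CPM in KO and 3.37 and 3.01 CPM in WT (log2 fold change -0.16, 95% interval from -0.48 to 0.15). Junb measured 9.87 and 11.9 CPM in KO and 8.52 and 9.11 CPM in WT (log2 fold change 0.31, interval from -0.06 to 0.67; -0.01 with library totals alone). The intervals of Zfp36 and Junb lie below the changes of over 4 on the log2 scale seen for both genes in Ter119pos cells. Log2 fold changes of Dusp1 (0.44), Jund (0.33), Fos (0.45) and Ier2 (-0.14) had adjusted p between 0.0962 and 0.675. KO and WT libraries did not overlap for 8 of the 10 members, 6 higher and 2 lower, against 31.5% and 31% of all genes; for Zfp36, 1 of the lower pair, KO and WT library B differ only beyond the printed digits. The 16 tested macrophage markers were all called lower here, with sums of 40.8 to 44.9 CPM in KO against 170 to 184 in WT. Granulocyte and monocyte marker sums were also lower in KO (1040 to 1470 against 1890 to 1970 CPM). Lower too were lymphoid (11.1 to 13.8 against 27.8 to 30.5) and hepatocyte sums (133 to 268 against 283 to 454). Stem and progenitor sums were lower (311 to 330 against 345 to 363) and erythroid sums higher (1210 to 1820 against 891 to 973). Sums overlapped for megakaryocyte markers, for mast cell, basophil and eosinophil markers and for endothelial and stromal markers. The 3 small non-coding RNAs took 23.9% to 26.9% of counts in KO and 14.3% to 20.2% in WT. The part of these in the Ter119neg values was not tested.

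**Figure D3:**
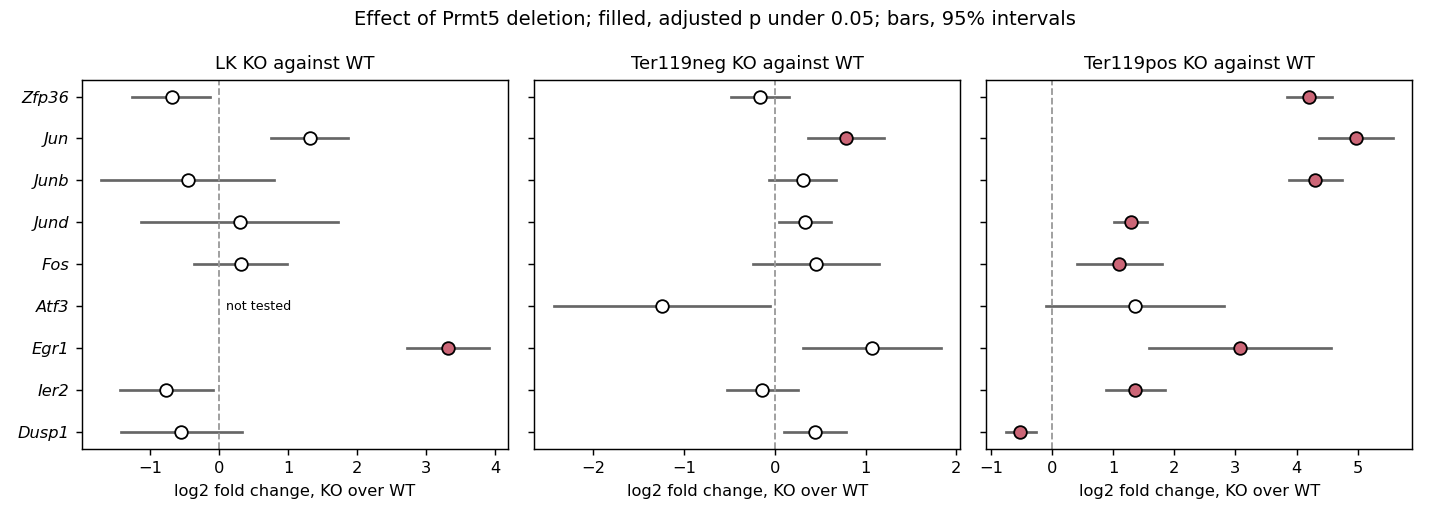
log2 fold change of KO over WT (x axis, a scale for each panel) for 9 members in LK, Ter119neg and Ter119pos cells; points are estimates, filled where the edgeR adjusted p was under 0.05, and bars are 95% intervals. Jun, Junb and Zfp36 lie at 4.97, 4.31 and 4.21 in Ter119pos cells, and Egr1 is the single filled point in LK, at 3.32. The LK panel shows the fit without the library letter as a block.

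The difference of the KO effect between the fractions was tested as an interaction. It was called for 7 of 9 tested members, 6 with a higher and 1 with a lower effect in Ter119pos cells, against 41.7% of all genes, 19.3% with a higher and 22.4% with a lower effect. The difference was 4.37 on the log2 scale for Zfp36 (SE 0.249, edgeR adjusted p = 2.2e-06), 4.19 for Jun (SE 0.396, adjusted p = 1.9e-05) and 4.00 for Junb (SE 0.291, adjusted p = 5.46e-06). Ier2 (1.5), Jund (0.96) and Dusp1 (-0.96) were also called, with adjusted p from 0.00243 to 0.00334. Jund lost its call with library totals alone (0.39), and Dusp1 without Ter119neg KO library B (-0.64). Atf3 passed narrowly (2.60, adjusted p = 0.0464) and lost its call under 9 of 16 alternatives. Egr1 (2.00, adjusted p = 0.0917) and Fos (0.64, 0.329) did not pass. Egr1 ranged from 0.79 with the mouse as a block to 6.88 without Ter119pos WT library B, and was called there (adjusted p = 0.0158) and without the low count filter (2.06, 0.0265).

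The fractions were also compared within each genotype; these values share their libraries with the comparisons above. In WT, Ter119pos cells had higher Dusp1, Jund and Fos than Ter119neg cells and lower Jun, Egr1, Junb, Ier2 and Zfp36, so 3 of 9 tested members were higher and 5 lower. Of all genes 76.3% were called, 35.9% higher and 40.4% lower. Dusp1 stood at 50.7 and 43.5 CPM in Ter119pos and 1.54 and 1.62 CPM in Ter119neg WT libraries, 29.8-fold higher (log2 fold change 4.90, SE 0.151, edgeR adjusted p = 6.84e-11). Jun was 5.21-fold lower (log2 fold change -2.38) and Zfp36 1.99-fold lower (-0.99). Egr1 (-2.72), Junb (-1.24) and Ier2 (-1.03) were also lower, and Jund (1.90) and Fos (1.21) higher. The Egr1 value was -7.61 without Ter119pos WT library B, leaving library A at 0, and -1.77 without library A. With the mouse as a block, in which the WT value rests on mouse 4 alone, Egr1 (-1.54, adjusted p = 0.102) and Fos (1.10, 0.0536) lost their calls and Atf3 passed at -3 (adjusted p = 0.05), against -0.70 without the block. With library totals alone Fos lost its call (0.06) and Atf3 was called at -1.85 (adjusted p = 0.014); Atf3 was 0.09 without Ter119pos WT library B.

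In KO, 7 of 9 tested members were higher in Ter119pos than in Ter119neg cells and none was lower. Of all genes 62.6% were called, 30.3% higher and 32.3% lower. Zfp36 stood at 28.3 and 31.4 CPM in Ter119pos and 2.69 and 3.01 CPM in Ter119neg KO libraries, 10.4-fold higher (log2 fold change 3.38, SE 0.157, edgeR adjusted p = 3.09e-09). Junb was 6.78-fold higher (2.76), Jun 3.5-fold (1.81), Jund 7.23-fold (2.85) and Dusp1 15.3-fold (3.94). Fos (1.86) and Atf3 (1.90) were higher too, the latter without its call under 6 of 12 alternatives. With library totals alone, Jun was at 0.06 and Fos at 0.10, neither called. Egr1 (-0.72, adjusted p = 0.184) and Ier2 (0.48, adjusted p = 0.0733) did not pass. Library totals alone moved the median of all genes from -0.12 to -1.86, and under them both were called lower, Egr1 at -2.44 (adjusted p = 2.33e-05) and Ier2 at -1.27 (3.88e-05). Ier2 was called higher under 6 of 12 alternatives, among them the mouse as a block (0.48, adjusted p = 0.0235), so its direction depended on the scaling.

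**Figure D4:**
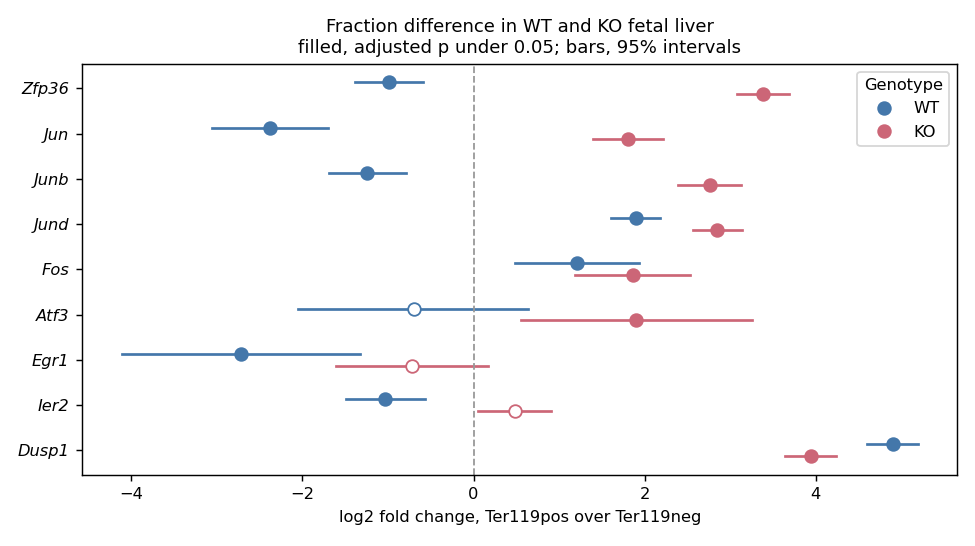
log2 fold change of Ter119pos over Ter119neg (x axis) for 9 members in WT (blue) and KO (red) fetal liver; filled points had an edgeR adjusted p under 0.05 and bars are 95% intervals. Zfp36 lies at -0.99 in WT and 3.38 in KO, Jun at -2.38 and 1.81, Junb at -1.24 and 2.76, and Dusp1 at 4.90 and 3.94.

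In LK progenitors, in the fit without the library letter as a block, Egr1 rose and the other tested members did not pass. With that block Jun and Ier2 passed as well, as given below. Egr1 was the single call among 8 tested members, against 1.82% of all 13771 genes (1.15% higher, 0.661% lower); Fosb and Atf3 were below the filter. Egr1 measured 7.43, 10.6 and 11.7 CPM in KO libraries A, B and C and 1.00, 1.05 and 0.933 CPM in the WT libraries. No library overlapped, and the WT libraries lay close together. The difference was 9.98-fold (log2 fold change 3.32, SE 0.304, edgeR adjusted p = 0.00467), and it remained called without any 1 library, though not without both letter C libraries (3.17, adjusted p = 0.0965).

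LK libraries of the same letter varied together, and the letter as a block changed 2 calls. Jun measured 6.66, 8.10 and 7.36 CPM in KO and 3.73, 2.84 and 2.30 CPM in WT, without overlap. Its log2 fold change of 1.31 (SE 0.286) did not pass (edgeR adjusted p = 0.0741) and was 1.32 with an adjusted p of 0.012 under the letter block. Ier2 measured 25.8, 42.0 and 28.1 CPM in KO and 39.3, 80.1 and 43.7 CPM in WT, overlapping between genotypes but lower in KO within each letter, by -0.61, -0.93 and -0.64 on the log2 scale for A, B and C. It did not pass without the block (log2 fold change -0.77, adjusted p = 0.308) and passed with it (-0.72, adjusted p = 0.014).

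Zfp36 in LK cells measured 13.5, 14 and 13.1 CPM in KO and 14.9, 29.8 and 21 CPM in WT. The KO libraries were all below the WT libraries, and the change passed neither without the block (log2 fold change -0.69, SE 0.289, edgeR adjusted p = 0.277) nor with it (-0.63, 0.065). Junb measured 13.2, 33.7 and 15 CPM in KO and 15.5, 56.9 and 12.6 CPM in WT, and Jund 8.23, 28.2 and 9.55 against 6.52, 25.9 and 5.19 CPM. For both genes the letter B libraries, rich in 18S ribosomal RNA, were the highest in each genotype. Within letters the log2 ratio of KO to WT was -0.23, -0.76 and 0.25 for Junb and 0.34, 0.12 and 0.88 for Jund, so Junb had no common direction. Neither passed (adjusted p = 0.753 and 0.862), and Junb was 0.05 without both letter B libraries.

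Fos (6.01, 8.37 and 8.75 CPM in KO, 6.66, 8.27 and 3.79 CPM in WT; log2 fold change 0.31, edgeR adjusted p = 0.685) and Dusp1 (3.02, 3.15 and 2.33 against 3.03, 7.05 and 2.48 CPM; -0.55, 0.573) overlapped between genotypes. Fosb stayed at or below 0.271 CPM and Atf3 at or below 0.243 CPM in all 6 libraries. Of the 10 members 2 were separated upward and 1 downward, against 11.3% and 12.9% of all genes. The 18 granulocyte and monocyte markers summed to 9860 to 18600 CPM in KO and 25000 to 53700 CPM in WT (0 of 18 called). The 12 mast cell, basophil and eosinophil markers summed to 237 to 450 against 772 to 2260 CPM (4 called lower), the macrophage markers to 141 to 266 against 294 to 364 CPM (2 of 10 tested lower) and the megakaryocyte markers to 120 to 190 against 78.9 to 116 CPM (2 of 9 tested higher). Their part in the LK values was not tested. Per kilobase, Ier2 was the highest member in both genotypes, at 21 ± 5.75 CPM per kb in KO and 35.7 ± 14.7 in WT (SD, n = 3), followed by Junb at 11.4 ± 6.26 and 15.7 ± 13.7. Ier2, Junb, Jund and Zfp36 each overlapped their neighbour in the order across libraries in both genotypes. Within every LK library, however, Ier2 was above Junb and Junb above Jund, while Jund and Zfp36 had no common order in WT.

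Genes of the same pathways were counted from lists chosen with earlier results known. The LK counts are from the fit without the letter block. More genes were called in LK cells with that block, and the lists were not counted under it. A list gene not called in LK cells may therefore pass with the block. Each count can be read against the share of all genes called. That share was 24.8% higher and 29.3% lower in Ter119pos, 9.57% and 9.55% in Ter119neg and 1.15% and 0.661% in LK cells. Counts and medians of the lists rest on TMM factors and were not repeated under other scalings. Library totals alone moved the all-gene median in Ter119pos cells from -0.04 to -0.93. The direction of small list values there thus depends on scaling. Among 36 tested other immediate early genes, 15 were higher and 4 lower in Ter119pos KO cells, with a median log2 fold change of 0.75. Plk2, a stress-induced polo-like kinase, measured 15.5 ± 2.78 CPM in KO and 0.148 ± 0.124 in WT (SD, n = 2; log2 fold change 6.66). Gadd45g, a growth arrest gene, measured 13 ± 2.24 against 2.74 ± 0.294 CPM, and Nfkbia, the inhibitor of NF-kappa B, 9.30 ± 3.56 against 1.52 ± 0.103 CPM. Klf10, a TGF-beta-induced repressor, was lower (8.48 ± 0.884 against 25.2 ± 1.56 CPM). In Ter119neg cells 8 were higher and 2 lower, with Plk2 (3.53), Btg2 (1.37) and Gadd45g (1.52) higher and Klf4 (-2.56) lower on the log2 scale. In LK cells Plk2 was higher (7.23) and Klf4, a factor of monocyte differentiation, lower (-3.37), with no other call. Plk2, Btg2 and Atf3 are also known targets of p53, and Plk2 and Btg2 stand in both lists. Of 25 listed p53 targets, 19 were higher and 2 lower in Ter119pos KO cells. In Ter119neg KO cells 21 were higher and 0 lower, and in LK KO cells 13 and 0. Atf3, not in that list, was called in neither fetal fraction and was below the filter in LK cells. The part of p53 in these changes was not tested.

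The partners, inputs and brakes of the pathway moved both ways in Ter119pos KO cells. Of 18 tested bZIP partners of AP-1, 3 were higher and 6 lower (median log2 fold change -0.03), among them Crem (2.95), which encodes a CRE-binding factor, and Mafg (-1.52), Atf2 (-1.18) and Atf1 (-1.04). Of 28 genes of MAP kinase input and SRF, 7 were higher and 12 lower (median -0.31); the ELK factor Elk4 (-1.83) and the kinases Braf (-1.13) and Mapk14 (-1.16) were lower. Of 14 MAP kinase phosphatases and Sprouty brakes, 5 were higher and 2 lower (median 0.92). Spry1, an inhibitor of receptor tyrosine kinase signalling, measured 34.1 ± 4.48 CPM in KO and 0.566 ± 0.135 in WT (SD, n = 2; log2 fold change 5.91, edgeR adjusted p = 1.9e-08). Spred1 (1.10) and Spred2 (1.27) were higher and Dusp16 (-0.83) lower. Of the EGR family and its corepressors only Nab1 (0.56, called) and Nab2 (1.27, adjusted p = 0.196) were tested.

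In LK cells 2 of the 14 brakes were higher and 0 lower. Dusp6, a phosphatase of ERK kinases, measured 44.8 ± 6.37 CPM in KO and 15.8 ± 0.997 in WT (SD, n = 3; log2 fold change 1.5, edgeR adjusted p = 0.0241). Dusp4, a nuclear MAP kinase phosphatase, was low in both groups, at 0.742 ± 0.149 against 0.0562 ± 0.0488 CPM (3.36, adjusted p = 0.0453). None of the 28 input genes and none of the 16 AP-1 partners tested in LK was called; Mapk3 (-1.19, adjusted p = 0.0838) and Fosl2 (-1.03, 0.0568) had the values nearest to it together with Map2k6 (-1.42, 0.0568). In Ter119neg cells 4 input genes were lower and 0 higher, namely Mapk3 (-0.65), Map2k6 (-1.01), Map2k2 (-0.42) and Elk3 (-0.61). Fosl2 (-1.16), Maf (-1.59) and Atf1 (-0.40) were lower and Crem (0.94) higher among the 18 partners, and Dusp16 (0.75) was higher and Dusp7 (-0.57) lower among the 14 brakes.

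The paralogs of Zfp36, mRNA decay machinery and other RNA-binding proteins were counted together as 30 tested genes, not all of them recruited by ZFP36. In Ter119pos KO cells 7 were higher and 15 lower (median log2 fold change -0.32), against 24.8% and 29.3% of all genes. The paralogs Zfp36l1 (12.0 ± 2.47 CPM in KO, 6.39 ± 0.0553 in WT; log2 fold change 0.90) and Zfp36l2 (30.2 ± 0.807 against 23.6 ± 0.19 CPM; 0.36) rose less than Zfp36. Tob1, an adaptor of the CCR4-NOT deadenylase (2.55), and Parn, a poly(A) nuclease (2.24), were higher, and Cnot4 (-1.68) and Pan3 (-1.26) lower. In Ter119neg cells 2 were higher (Tob1, 1.99, and Lsm1, 0.43) and 3 lower, including Pan2 (-1.02) and Zfp36l2 (-0.42), and none was called in LK. Of 9 tested mRNAs known as ZFP36 targets, 2 were higher in Ter119pos KO cells (Plk3, 3.87, and Myc, 0.44) and 2 lower (Ier3, -1.47, and Vegfa, -0.64), with a median of 0.44. In Ter119neg cells Plk3 (1.22), Pim1 (0.53) and Cd274 (0.97) were higher and Vegfa (-0.65) lower, and of 10 tested in LK none was called.

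Heat shock genes, which respond to unfolded protein and to cell handling, were counted as well. Of 14 tested in Ter119pos KO cells 5 were higher and 2 lower, with a median log2 fold change of 0.16, against 24.8% and 29.3% of all genes; the share called in either direction was near the 54.2% over all genes. Hspa1a and Hspa1b, near-identical copies whose reads can be split between them, measured 21.8 ± 3.48 against 1.13 ± 0.101 CPM and 16.4 ± 0.118 against 1.24 ± 0.654 CPM (SD, n = 2; log2 fold changes 4.26 and 3.71). Hspe1, a mitochondrial chaperonin, was higher (2.01) and Dnajb1 lower (-0.55). In Ter119neg cells Hsf1 was lower (-0.93) with no other call, and in LK cells none of 13 was called. Whether heat shock genes and the members share a source of variation was not tested.

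**Figure D5:**
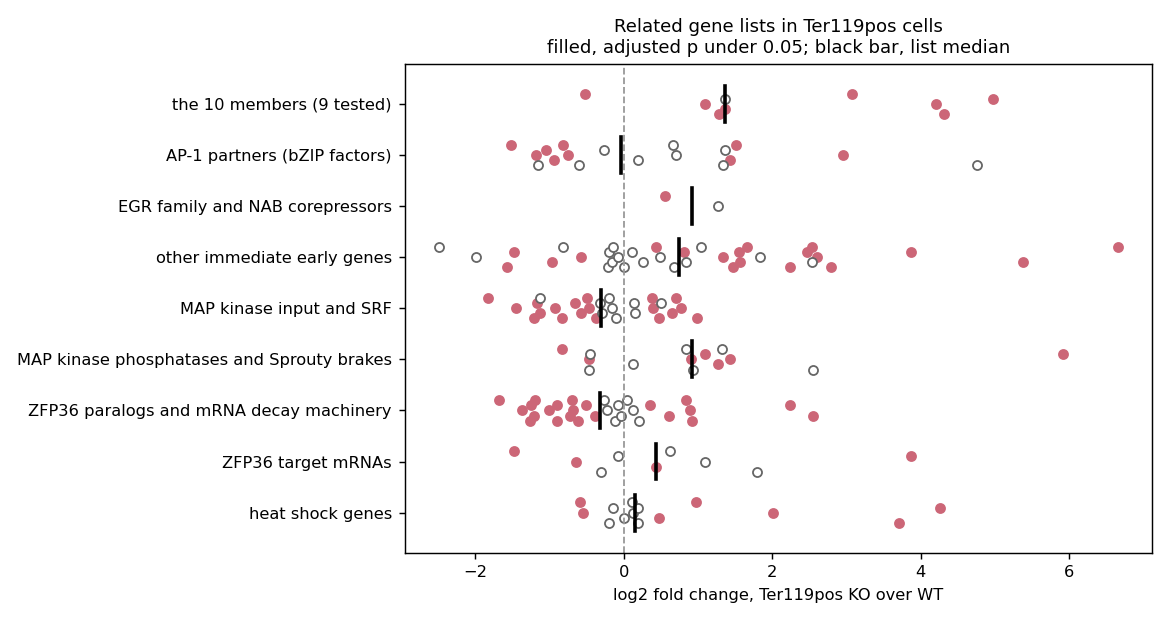
log2 fold change of Ter119pos KO over WT (x axis) for the 9 tested members and the tested genes of 8 related lists; each point is a gene, filled where the edgeR adjusted p was under 0.05, and the black bar is the list median. The members' median is 1.36, against 0.75 for other immediate early genes and -0.32 for ZFP36 paralogs and decay machinery.

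Across the 8 fetal libraries the log2 levels of Junb and Zfp36 had a Pearson r of 0.973, those of Jun and Junb 0.95 and those of Jun and Zfp36 0.878. These points share genotype, fraction and depth, and the values describe only how the libraries line up. Across the 6 LK libraries r was 0.959 for Jun and Egr1, 0.903 for Ier2 and Zfp36 and -0.806 for Jun and Zfp36. Over all 14 libraries, centred within each table, the mean profile of the 8 members that passed the filter in both tables was most like those of Txnl1 (r = 0.973), Mrpl32 (0.96), Psmb1 (0.95), the pseudogene Rpsa-ps10 (0.948) and Dedd (0.947), out of 7825 genes ranked.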

How the data were processed

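RNA was sequenced from 14 libraries in 6 groups, with totals of 19514550 to 30976961 counts. Fetal RNA was extracted with Trizol and LK RNA with a Qiagen column kit, and stranded total RNA libraries were made, per the labels' protocols. The submitters' processing notes name STAR 2.5.3, RSEM and GRCm38; which RSEM version and annotation were used is not given in the sources used here. Values deposited by the authors are RSEM expected counts, in separate LK and fetal tables of 45706 genes, of which 45143 matched GENCODE M21. Exon numbers given for the members are those of the longest transcript in that annotation.

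Expected counts were rounded and fitted with edgeR 4.0.16 in R 4.3.3 (quasi-likelihood test, TMM, filterByExpr, leaving 13771 LK and 15566 fetal genes), tested beforehand on simulated data. The 8 fetal libraries formed 1 model and the 6 LK libraries another. Benjamini-Hochberg adjustment ran over all genes tested, and calls were made under 0.05. The SE is the log2 fold change over the root of F, intervals are normal at 95%, and floors of 3 counts cover counting error only. The members, lists, tests and alternatives were chosen with earlier results of these data known. Named genes are all members, Prmt5, up to 4 genes of each pathway list with the smallest p, Zfp36l1 and Zfp36l2, and the 5 genes of at least 5 CPM most like the members' mean log2 profile (prior count 2). A result that this rule picks is not reported here.

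LK libraries of the same letter had correlated deviations from their group means (r = 0.604, 0.719 and 0.73); the labels do not say what a letter marks. Fetal letters did not (0.00472 and -0.0288). Mouse numbers in the labels pair the fractions of mice 1, 2 and 4 (r = 0.155 for mice 1 and 2, -0.0678 for mouse 4). Alternatives were RLE factors, no filter, DESeq2 1.42.0, a transcript length trend removed (span 0.3), TMM over protein-coding genes, globin genes removed, letter or mouse blocks, a fraction alone and libraries left out. Library totals alone were added after seeing the data.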

Additional observations from a re-analysis of the deposited data

Results flagged for a closer look

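The effect of KO differed between the 2 fetal fractions, by an interaction test in edgeR, for 7 of 9 tested members. Of all genes tested 41.7% were called, 19.3% with a higher and 22.4% with a lower effect in Ter119pos cells. On the log2 scale, as the effect in Ter119pos minus that in Ter119neg cells, the difference was 4.37 for Zfp36 (adjusted p = 2.2e-06), 4.19 for Jun (1.9e-05), 4.00 for Junb (5.46e-06), 2.60 for Atf3 (0.0464), 1.5 for Ier2 (0.00256), 0.96 for Jund (0.00243) and -0.96 for Dusp1 (0.00334). The difference is positive for 6 of the 7 members and negative for Dusp1. Atf3 lost its call under 9 of 16 alternatives, and Jund and Dusp1 each under 1. Zfp36 was also higher in both Ter119pos KO libraries than in both WT libraries (log2 fold change 4.21) and lower in all 3 LK KO libraries than in all 3 WT libraries (-0.69, not called); this difference between populations was not tested.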

How the results depend on the processing

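Over 711 combinations of a member, a comparison and an alternative, direction and side of the threshold were kept in 647, a call was lost in 36 and gained in 18, and direction turned in 10; the cause was not tested. In LK, 1 member was called, against 2 with DESeq2 or the length trend removed, 3 with the letter as a replicate block and 0 without both letter C libraries. In Ter119neg, 1 was called, against 0 with DESeq2 or library totals, 2 without the filter or with the fraction alone, and 0 to 1 with a library left out. In Ter119pos, 8 were called, against 5 with library totals and 7 to 8 with a library left out. No other fetal call changed with a block beyond those given with the fractions. In the main fits, 1.82% of all genes were called in LK, 19.1% in Ter119neg and 54.2% in Ter119pos cells. LK calls over all genes also rose with DESeq2, the length trend removed and the letter block, and fell without both letter C libraries. Those totals are given below, and the member counts cannot be read as particular to the members.

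Turned directions belonged to values not called at first. With a library left out, Dusp1 ranged from -0.81 to 0.03, Junb from -0.99 to 0.54 and Jund from -0.48 to 1.37 in LK (turned without WT B, WT B, and KO B or WT C), and Atf3 from -2.65 to 0.09 between WT fractions (without Ter119pos WT B). Without both letter B libraries Dusp1 was 0 and Junb 0.05, and without both letter C libraries Fos was -0.01 in LK. With library totals, Junb was -0.01 in Ter119neg and Ier2 -1.27 between KO fractions, a call in the other direction (adjusted p = 3.88e-05).

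Of all genes, 250 were called in LK, against 971 with DESeq2, 3129 with the letter block, 474 without the length trend, 150 with library totals, 71 and 14 without both letter B or C libraries, and 33 to 268 with a library left out; in Ter119neg 2976 were called, against 1450 to 1788. Library totals changed the higher share of calls from 63.6% to 78% in LK, 50.1% to 17.5% in Ter119neg, 45.8% to 13.9% in Ter119pos, 47% to 20.3% and 48.4% to 6.98% between WT and KO fractions, and 46.2% to 17.5% for the interaction. With 2 libraries a group, 1 left out leaves a lone library assumed to vary like the others. Depth limits Fosb, Atf3 and, in Ter119pos WT, Egr1.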
